A study of Mus musculus with 16 samples.

Results

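The genes described here are 10 core genes of the circadian clock, the cell-autonomous oscillator that sets daily rhythms of transcription: Per1, Per2, Per3, Cry1, Cry2, Arntl, Clock, Nr1d1, Nr1d2 and Dbp. They were picked by symbol from the 24062 genes of the count table and the 23991 genes of the FPKM table, and all 10 were found in both. Each was measured by RNA-seq in whole brains, cerebellum included, of 16 female C57BL/6J mice on postnatal day 45, with 1 library per mouse and 4 mice per group. WW mice had only water. NW mice drank a nicotine solution of 200 µg/ml during 22 h of each day. Water-Ethanol mice were offered 20% v/v ethanol in short dark-phase sessions over 4 days, and NE mice received both drugs. No nicotine was offered during the sessions, so NW and NE brains were taken after a last session of 4 h without it. The part of this gap in the results was not tested. Sessions began at 1300 h, within the dark phase, and lasted 2 h on the earlier days and 4 h on the last day. Brains were taken after that last session. Every level below is thus from 1 part of the daily cycle, and no rhythm was measured. The exact time of dissection of each mouse after that session is not given in the sources used here, and its part in the results was not tested. All comparisons with WW share the same 4 control mice.

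ARNTL and CLOCK form the activator of the loop, which binds E-box elements and drives the Per, Cry, Nr1d and Dbp genes. PER and CRY proteins feed back to inhibit that activator. NR1D1 and NR1D2 (REV-ERB alpha and beta) repress Arntl through ROR elements, and DBP activates genes that carry a D-box. In brain the suprachiasmatic nucleus is the master pacemaker, and most other regions, including the cerebellum and forebrain, hold clocks of their own. A whole-brain library averages all of these, and in such bulk tissue fewer cells of a type and less RNA per cell cannot be told apart.

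Promoters of 4 members are shown here because they carry, close to the start, elements of the kinds named above. Windows of 250 bases before to 50 bases after the start, taken from RefSeq on GRCm38.p6, were matched by symbol for 9 of the 10 members, in 13 windows. They were searched on both strands for the E-box CACGTG, the D-box TTATGTAA and the ROR element TAGGTCA. In the lines below, capitals mark the matched element and letters run 5′ to 3′ on the gene's strand.
Per1, chr11:69098699-69098998, plus strand, E-box: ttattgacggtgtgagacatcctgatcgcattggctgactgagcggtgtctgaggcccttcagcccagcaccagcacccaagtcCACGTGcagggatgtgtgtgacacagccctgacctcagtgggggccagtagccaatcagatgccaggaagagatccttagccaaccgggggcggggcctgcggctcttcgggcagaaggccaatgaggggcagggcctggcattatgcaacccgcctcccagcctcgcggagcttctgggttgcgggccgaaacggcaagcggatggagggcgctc
Cry1, chr10:85185005-85185304, minus strand, E-box: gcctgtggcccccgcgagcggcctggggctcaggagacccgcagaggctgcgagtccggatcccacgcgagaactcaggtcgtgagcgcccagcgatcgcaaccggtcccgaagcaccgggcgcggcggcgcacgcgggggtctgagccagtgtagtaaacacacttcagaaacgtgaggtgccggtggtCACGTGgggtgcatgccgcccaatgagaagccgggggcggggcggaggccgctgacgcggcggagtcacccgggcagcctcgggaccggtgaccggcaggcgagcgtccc
Per3, chr4:151044616-151044915, minus strand, D-box at 2 places: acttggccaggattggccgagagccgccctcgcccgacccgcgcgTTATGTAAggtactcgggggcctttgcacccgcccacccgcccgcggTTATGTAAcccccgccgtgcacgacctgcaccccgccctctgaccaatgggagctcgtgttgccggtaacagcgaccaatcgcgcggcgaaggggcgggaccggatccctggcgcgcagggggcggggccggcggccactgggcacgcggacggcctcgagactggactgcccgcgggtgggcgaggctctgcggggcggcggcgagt
Arntl, chr7:113207261-113207560, plus strand, ROR element: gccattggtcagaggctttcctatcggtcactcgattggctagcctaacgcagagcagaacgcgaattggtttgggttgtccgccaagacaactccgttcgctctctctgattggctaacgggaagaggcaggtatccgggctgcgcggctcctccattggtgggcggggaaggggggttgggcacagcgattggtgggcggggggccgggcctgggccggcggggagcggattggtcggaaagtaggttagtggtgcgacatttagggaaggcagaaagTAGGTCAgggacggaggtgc
Of all 32851 windows in the same table, 7.15% held the E-box, 0.938% the D-box and 2.61% the ROR element. The other 9 member windows, of Cry2, Clock, Dbp, Nr1d1 and Nr1d2 and a second one each of Per1 and Arntl, had no match to these letters. A match, or none, describes the letters of a window and nothing more. In the count table's GRCm38 models the genes lie at chr11:69098956-69109957 (Per1), chr1:91415982-91459328 (Per2), chr4:151003655-151044665 (Per3), chr10:85131700-85185054 (Cry1), chr2:92403647-92434069 (Cry2), chr7:113207465-113314126 (Arntl), chr5:76209868-76304792 (Clock), chr11:98767932-98775377 (Nr1d1), chr14:18204056-18239106 (Nr1d2) and chr7:45705247-45710203 (Dbp).

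Counted reads per mouse ran from 27100352 to 32880979, and each member had between 843 and 6004 reads in every mouse, so low counts limited none of them. Tissue content differed between libraries, most of all in cerebellum. WW replicate 4 and NW replicate 3 were low in 6 cerebellum markers, whose summed level was 216 and 342 CPM (reads scaled to library size with TMM factors) in them against 707 to 910 CPM in the other 14 mice. Gabra6, a receptor subunit of cerebellar granule cells, was at 36.2 and 56.0 CPM in these 2 mice and at 116 to 152 CPM in the others. Results that rest on them are given with and without them below. NW replicate 3 also had the highest share of counts on the ribosomal RNA precursor Rn45s, 3.90%, against 0.274% to 1.37% in the other mice. Its pituitary markers summed to 17.1 CPM, against 1.04 to 3.22 CPM elsewhere. Olfactory bulb markers summed to 58.2 CPM in Water-Ethanol replicate 3, 64.8 CPM in NE replicate 3 and 70.5 CPM in NW replicate 4, against 84.2 to 113 CPM in the other 13 mice. Marker genes of the suprachiasmatic nucleus were a small part of each library, with 5 of 7 passing the filter on low counts and a summed level of 62.4 to 75.4 CPM. In the comparisons with WW, edgeR called markers of a few other tissues and cell types: 1 of 6 choroid plexus markers higher in Water-Ethanol and in NE and 1 of 6 endothelial markers lower in NE. For the ethanol effect 1 choroid plexus marker was called higher, and 1 astrocyte, 1 oligodendrocyte, 1 endothelial and 2 microglia markers lower. EdgeR called no tested gene of the neuron, meninges, olfactory bulb, cerebellum, suprachiasmatic nucleus or glucocorticoid-responsive lists, and only 1 of 6 pituitary and 1 of 7 blood markers could be tested, neither of them called. Of the markers to which DESeq2 gave an adjusted p, it also called 2 of 6 neuron, 1 of 6 olfactory bulb, 2 of 6 oligodendrocyte, 2 of 5 microglia and 1 of 6 endothelial markers lower in Water-Ethanol. In NE it also called 2 of 6 astrocyte and 1 of 5 microglia markers lower and Avp, of the suprachiasmatic nucleus list, higher. For the ethanol effect DESeq2 called 3 of 6 astrocyte and 4 of 6 microglia markers lower. The part of these lists in the members' differences was not tested, apart from the fit with cerebellum and olfactory bulb scores given below.

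Levels between members were compared as FPKM, which is scaled for transcript length, over all 16 mice. Nr1d2 was highest at 40.3 ± 2.63 FPKM (SD, n = 16), followed by Cry2 at 37.4 ± 2.01, Nr1d1 at 31.8 ± 2.05, Dbp at 21.6 ± 2.42 and Per1 at 20.4 ± 2.30 FPKM. Clock (16.3 ± 0.978), Arntl (13.9 ± 0.878), Cry1 (12.6 ± 0.905), Per2 (9.55 ± 1.08) and Per3 (7.93 ± 0.827) were lower. Neighbours in this order had overlapping ranges over the 16 mice, except that the lowest Nr1d1 value (27.8 FPKM) was above the highest Dbp value (27.6 FPKM). On the FPKM scale the 2 nuclear-receptor repressors and Cry2 were thus the most abundant members, and the period genes Per2 and Per3 the least. The place of Nr1d1 depends on that scale. In the count table it averaged 63.9 CPM over 2765 exon bases and Dbp 44.3 CPM over 1678, which puts Dbp above Nr1d1 per base. The spread from mouse to mouse was widest for Dbp, with a coefficient of variation of 12.1% in CPM, then Per1 (11.7%), Per2 (11.3%) and Per3 (10.3%), and narrowest for Cry2 (5.34%), against a median of 7.89% over the 15592 genes tested and of 5.51% over the 4840 of them within the members' range of CPM.

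Nicotine alone was compared with water to ask which clock genes differ after nicotine drinking without ethanol. In edgeR's quasi-likelihood test no member passed an adjusted p of 0.05 and no gene of 15344 did (0%). At an unadjusted p under 0.05 there were 3 of 10 members (Clock, Nr1d1 and Nr1d2), where 8.44% of all genes stood, and the same 3 were the members whose groups of 4 did not overlap, where 5.96% of all genes stood. DESeq2 called 125 genes in this comparison, none of them a member.

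Clock, the DNA-binding partner of ARNTL, was at 161, 162, 160 and 158 CPM in WW and at 127, 143, 148 and 154 CPM in NW. Every NW mouse was below every WW mouse, and the NW values were spread more widely. The difference was -0.16 ± 0.055 on the log2 scale (SE), or -10.7% (95% interval -17.8% to -2.94%), with an adjusted p of 0.419 in edgeR. Nr1d1, a repressor of Arntl, was at 59.4, 61.3, 56.5 and 61.2 CPM in WW and at 72.6, 64.3, 67.5 and 65.1 CPM in NW. All 4 NW mice were above all WW mice. Its log2 difference was 0.18 ± 0.052, or 13.1% (95% interval 4.52% to 22.4%), with an adjusted p of 0.328 in edgeR. Nr1d2, the close relative of Nr1d1, lay the other way, at 184, 180, 175 and 176 CPM in WW and 157, 163, 164 and 174 CPM in NW. The groups did not overlap, though NW replicate 4 was within 1 CPM of the lowest WW mouse. Its log2 difference was -0.12 ± 0.043, or -7.83% (95% interval -13.7% to -1.57%), with an adjusted p of 0.489 in edgeR.

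For each of these 3 genes the exact two-sided permutation test over the 8 mice gave p = 0.0286, the smallest that 4 against 4 allows. Groups of 4 that do not overlap always give that value, so it adds nothing to their separation. The transcripts of Clock and Nr1d2 have a low GC content (41.5% and 44.0%) and that of Nr1d1 a high one (56.6%). With a correction for GC content the log2 differences were smaller, -0.07 for Clock, -0.06 for Nr1d2 and 0.12 for Nr1d1. Only Nr1d1 then kept an unadjusted p under 0.05 in edgeR, and Clock and Nr1d2 did not. The part of GC content in the differences was not tested further.

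The other members of the NW comparison overlapped between groups. Their log2 differences ran from -0.12 (Per1) to 0.17 (Dbp), and the median of the 10 members was -0.00 against 0.01 over all genes. Per1, an early-responding period gene, was at 97.8, 88.5, 84.5 and 98.5 CPM in WW and at 85.0, 60.3, 99.9 and 93.6 CPM in NW. Its wide interval, -24.1% to 11.2%, rests on NW replicate 2, and without that mouse the log2 difference was 0.01.

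**Figure D1:**
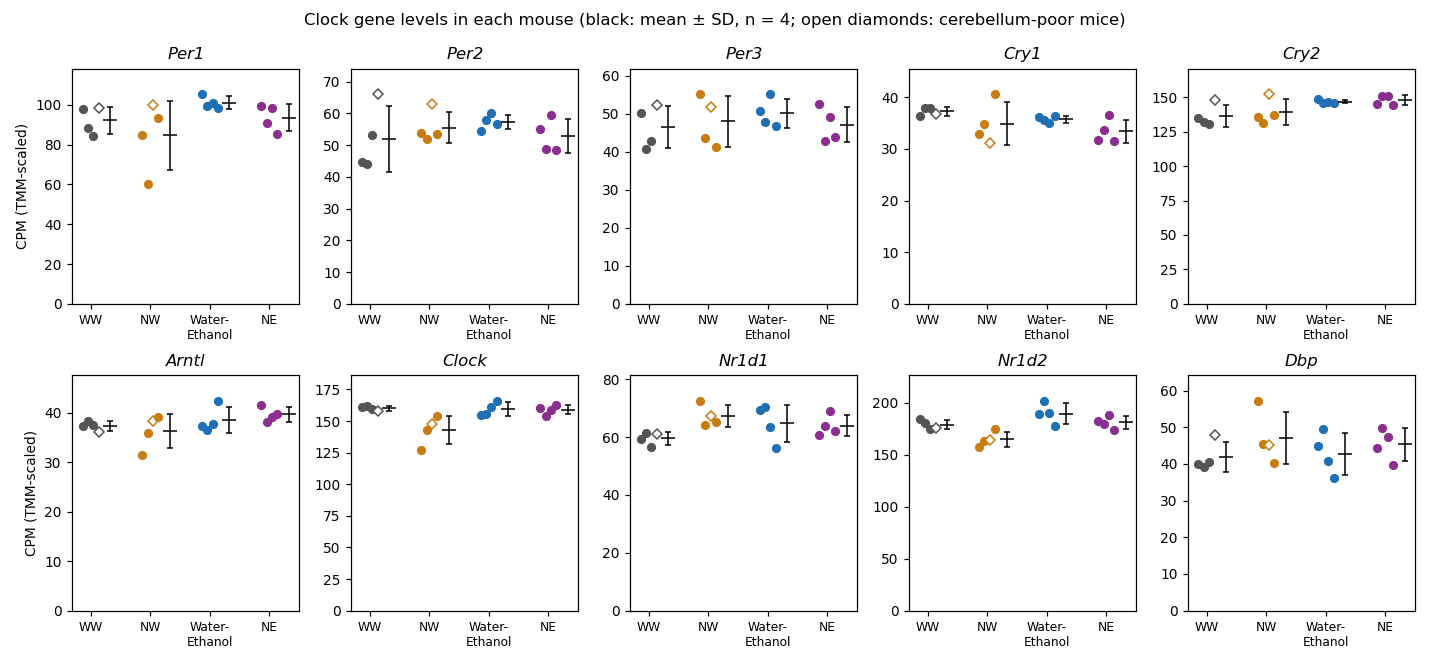
TMM-scaled CPM of each of the 10 clock genes in every mouse, by group, on axes that start at 0; points are mice, black marks are means ± SD of 4, and open diamonds are the 2 mice low in cerebellum markers. The NW mice sit below all WW mice for Clock and Nr1d2 and above them for Nr1d1, and the open diamonds are the highest WW and NW points for Cry2 and Per2.

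Ethanol alone was compared with water to ask which clock genes differ after binge-like ethanol sessions. No member passed an adjusted p of 0.05 in edgeR, where 0.457% of 15323 genes did. At an unadjusted p under 0.05 there were 2 of 10 members, Per1 and Cry2, both higher in Water-Ethanol mice, where 19.3% of all genes stood. With GC correction neither did (log2 differences 0.07 and 0.07), and Nr1d2 (0.11) was then the 1 member that did. Only Cry1 had groups that did not overlap, where 10.8% of all genes stood. The median log2 difference of the members was 0.10, with 8 of 10 above 0, against a median of 0.00 over all genes.

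Per1 was at 97.8, 88.5, 84.5 and 98.5 CPM in WW and at 106, 99.5, 101 and 98.2 CPM in Water-Ethanol. In 3 of 4 Water-Ethanol mice it was above every WW mouse. The log2 difference was 0.13 ± 0.051 with an adjusted p of 0.181 in edgeR. Cry1, a strong inhibitor of the activator, was at 36.3, 38.0, 37.9 and 36.8 CPM in WW and at 36.2, 35.6, 34.9 and 36.3 CPM in Water-Ethanol. The groups were separate but by less than 1 CPM, with a log2 difference of -0.06 ± 0.041 and an adjusted p of 0.468 in edgeR. Its unadjusted p was 0.186 in edgeR. The exact two-sided permutation test gave 0.0286 for Cry1, the value that groups of 4 without overlap always give. For Per1 and Cry2, whose groups overlapped, it gave 0.0571 and 0.114.

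Cry2, the second cryptochrome, was at 135, 132, 131 and 148 CPM in WW and at 149, 146, 147 and 146 CPM in Water-Ethanol. WW replicate 4, 1 of the 2 cerebellum-poor brains, was the only WW mouse inside the Water-Ethanol range. The log2 difference was 0.11 ± 0.042 with all mice (adjusted p = 0.178, edgeR). Without WW replicate 4, 2 members passed the test. Cry2 then differed by 0.15 ± 0.033 (adjusted p = 0.0253) and Per2, another inhibitor of the activator, by 0.28 ± 0.064 (adjusted p = 0.0301, edgeR). Per2 was at 44.5, 43.9, 53.3 and 66.2 CPM in WW and at 54.5, 57.9, 60.0 and 56.7 CPM in Water-Ethanol, and with all mice its difference was 0.14 ± 0.11 (adjusted p = 0.480). Leaving out that mouse also raised the calls over all genes, from 70 to 797.

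Both drugs together were compared with water to ask the same of combined exposure. No member passed an adjusted p of 0.05 in edgeR, where 0.313% of 15313 genes did. At an unadjusted p under 0.05 there were 3 of 10 members, where 17.5% of all genes stood, and none had groups that did not overlap, where 10.7% of all genes stood. Cry2 was at 145, 151, 151 and 145 CPM in NE, above the first 3 WW mice and on both sides of WW replicate 4. Its log2 difference was 0.12 ± 0.042 (adjusted p = 0.185, edgeR). Without that mouse it was 0.16 ± 0.034 (adjusted p = 0.0386, edgeR), where 283 of 15381 genes passed. Cry1 was at 31.7, 33.7, 36.5 and 31.6 CPM in NE, with 3 of the 4 mice below every WW mouse. Its log2 difference was -0.16 ± 0.053, or -10.3% (95% interval -17.1% to -2.82%), with an adjusted p of 0.168 in edgeR. Nr1d1 was at 60.6, 64.0, 69.0 and 62.1 CPM in NE, where 3 of 4 mice were above every WW mouse. Its log2 difference was 0.10 ± 0.047 (adjusted p = 0.286, edgeR). The exact two-sided permutation test gave 0.0857 for Cry2, 0.0571 for Cry1 and 0.0857 for Nr1d1. With GC correction the log2 differences of Cry2 and Nr1d1 were 0.07 and 0.04 and neither kept an unadjusted p under 0.05, while Cry1 (-0.17) kept it and Arntl (0.10) gained it.

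The effect of ethanol averaged over mice with and without nicotine was taken from a fit of all 16 mice. It treats both ethanol groups alike, as does the interaction given below. The paper reports that nicotine-exposed mice drank more ethanol in the last session and had higher blood ethanol. Ethanol dose thus differed with nicotine, and its part in these effects was not tested. Nr1d2 was the only member to pass, where 4.5% of 15592 genes did, and it rose by 7.86% (95% interval 3.21% to 12.7%). Its log2 difference was 0.11 ± 0.030 with an adjusted p of 0.0472 in edgeR. In NE mice Nr1d2 was at 182, 180, 188 and 173 CPM and in Water-Ethanol mice at 189, 202, 190 and 178 CPM, and the means of NE and Water-Ethanol (181 and 190 CPM) were above those of NW and WW (165 and 179 CPM). This call lies close to the threshold. Across the alternatives the adjusted p ran from 0.0146 (DESeq2) to 0.105, and when each of the 16 mice was left out in turn it passed in 5 cases and missed in 11, namely without WW replicates 2, 3 and 4, Water-Ethanol replicates 1, 2 and 3, NW replicates 1, 2 and 3, or NE replicates 1 and 3.

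At an unadjusted p under 0.05 the ethanol effect also took in Cry2 (log2 difference 0.10 ± 0.033, adjusted p = 0.0917, edgeR) and Clock (0.07 ± 0.033, adjusted p = 0.187), where 22.9% of all genes stood. For Cry2 the call depended on the mice low in cerebellum markers. With cerebellum and olfactory bulb scores as covariates the difference was 0.13 ± 0.026 (adjusted p = 0.0104, edgeR), where 745 of 15592 genes passed. Nr1d2 then had an adjusted p of 0.0806. With both cerebellum-poor mice left out Cry2 rose by 0.14 ± 0.024 on the log2 scale (adjusted p = 0.00381, edgeR), and Nr1d2 missed the threshold (adjusted p = 0.0652). In that fit 1061 of 15667 genes passed, against 702 of 15592 with all mice. With GC correction the Cry2 difference was 0.08 (adjusted p = 0.182). The other 7 members had log2 differences from -0.06 (Cry1) to 0.14 (Per1).

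No member and no other gene (0%) passed for the averaged nicotine effect or for the nicotine by ethanol interaction in edgeR. At an unadjusted p under 0.05 the nicotine effect took in Nr1d2 (log2 difference -0.09 ± 0.030) and Clock (-0.08 ± 0.033), where 10.3% of all genes stood. With GC correction these differences were -0.05 and -0.02 and neither kept an unadjusted p under 0.05, while Per1 (-0.16) then had one. The interaction took in Clock (0.16 ± 0.066) and Nr1d1 (-0.20 ± 0.088), where 6.76% of all genes stood, and with GC correction (0.09 and -0.15) 0 members did. DESeq2 called 110 genes for nicotine and 1 for the interaction, none of them a member. A difference between the ethanol effects with and without nicotine was not established for any member.

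**Figure D2:**
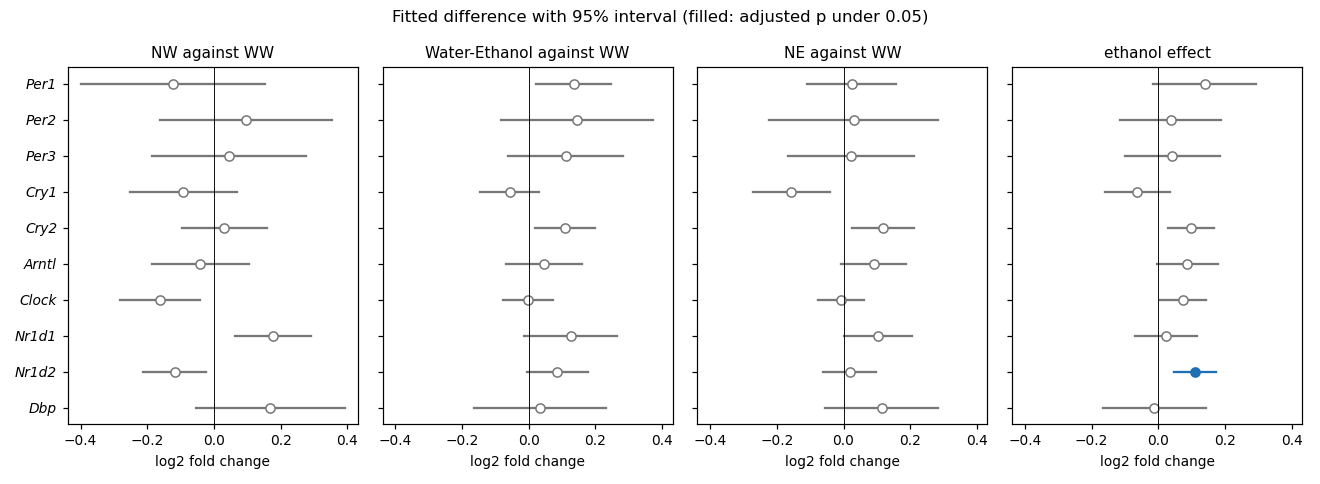
Fitted log2 fold change of each clock gene with its 95% interval in the 3 comparisons with WW and for the averaged ethanol effect; a filled point has an adjusted p under 0.05. Nr1d2 in the ethanol effect, at 0.11, is the only filled point.

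The wider clock machinery was described with a list of 22 further genes, all of which passed the filter on low counts. None passed an adjusted p of 0.05 in the 6 comparisons with edgeR. At an unadjusted p under 0.05 there were 3 genes lower after nicotine, 4 higher and 3 lower after ethanol, and 4 higher and 2 lower after both drugs, where 8.44%, 19.3% and 17.5% of all genes stood. Median log2 differences of the list were -0.01, 0.01 and -0.03, against 0.01, 0.00 and 0.00 over all genes. Genes of this list whose groups did not overlap in a comparison with WW, with an unadjusted p under 0.05 there, are described next.

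Nampt, the enzyme that sets the pace of NAD salvage and is itself a clock output, was at 79.9 to 84.3 CPM in WW, 75.4 to 77.9 CPM in Water-Ethanol and 72.5 to 78.5 CPM in NE. Both ethanol groups lay below WW, with log2 differences of -0.10 ± 0.034 and -0.13 ± 0.039 (adjusted p = 0.149 and 0.147, edgeR). The fall was not particular to them. NW mice were at 69.5 to 80.3 CPM, with 3 of 4 below every WW mouse and a log2 difference of -0.14 ± 0.048 (adjusted p = 0.464, edgeR). With GC correction the differences were -0.07 in Water-Ethanol, -0.06 in NE and -0.04 in NW, and none kept an unadjusted p under 0.05. Tef, a relative of Dbp that binds the same D-box, was at 340 to 387 CPM in WW and 394 to 415 CPM in NE. The log2 difference was 0.16 ± 0.041, with an adjusted p of 0.102 in edgeR and 0.0208 in DESeq2. Without WW replicate 4 it was 0.0386 in edgeR. Tef was also higher in Water-Ethanol (0.13 ± 0.042, 3 of 4 mice above every WW mouse) and in NW (0.08 ± 0.050). DESeq2 also called Tef for the ethanol effect (adjusted p = 0.0198), where edgeR gave 0.0604. Wee1, a cell cycle kinase with an E-box promoter, was at 30.9 to 33.6 CPM in WW and 27.4 to 30.7 CPM in NE (-0.15 ± 0.051, adjusted p = 0.178, edgeR). It was also lower in Water-Ethanol (-0.14 ± 0.056) and NW (-0.11 ± 0.059), each with 3 of 4 mice below every WW mouse. Csnk1d, a kinase that marks PER proteins for turnover, was at 143 to 150 CPM in WW and 152 to 165 CPM in NE (0.10 ± 0.037, adjusted p = 0.187, edgeR). Its difference was 0.07 ± 0.035 in Water-Ethanol and 0.04 ± 0.039 in NW. With GC correction the NE differences were 0.12 for Tef, -0.15 for Wee1 and 0.07 for Csnk1d. Tef and Wee1 then kept an unadjusted p under 0.05 in edgeR, and Csnk1d did not.

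Arntl2, a paralog of Arntl, was at 4.69 to 4.81 CPM in WW and 5.65 to 8.64 CPM in Water-Ethanol. The log2 difference was 0.48 ± 0.13, with an adjusted p of 0.0860 in edgeR and 0.0291 in DESeq2. With cerebellum and olfactory bulb scores as covariates it was 0.220 in edgeR. The gene was low in every mouse and the WW values lay close together. NE (4.39 to 8.61 CPM) and NW (3.83 to 6.66 CPM) lay on both sides of them.

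Mouse-to-mouse variation within groups asked which members move together when treatment is held fixed. Log2 CPM was centred on each group's mean, and Pearson's r and Spearman's rho were computed for the 45 pairs over 16 mice, with 100000 permutations of mice within groups and adjustment over the 45 pairs. Among them 4 pairs passed an adjusted p of 0.05 for Pearson's r, and all 4 lay within the set Arntl, Clock, Nr1d1 and Dbp. Arntl and Clock, the partners in the activator, rose and fell together with r = 0.93 (rho = 0.90). Their permutation p was 0.000120 for r and 0.000100 for rho, adjusted to 0.00270 and 0.00225.

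Dbp, a direct target of that activator, ran opposite to both. Dbp against Clock had r = -0.86 (rho = -0.91), with permutation p of 3.0e-05 and 4.0e-05, adjusted to 0.00135 and 0.00180. Dbp against Arntl had r = -0.86 (rho = -0.85), with permutation p of 0.000490 and 0.000160, adjusted to 0.00735 and 0.00240. Dbp and Nr1d1, another target, ran together with r = 0.76 (permutation p = 0.00412, adjusted 0.0463), while rho was 0.62 (permutation p = 0.0301, adjusted 0.226) and missed the threshold. The mice show it directly. NW replicate 1 had the highest Dbp (57.2 CPM) and Nr1d1 (72.6 CPM) of all 16 mice with the lowest Arntl (31.6 CPM) and Clock (127 CPM), and Water-Ethanol replicate 4 had the lowest Dbp (36.0 CPM) and Nr1d1 (56.3 CPM) with the highest Arntl (42.5 CPM) and Clock (166 CPM).

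Without the 2 mice farthest from the median of the first gene of each pair, r was 0.89 for Arntl and Clock, -0.75 for Arntl and Dbp, -0.85 for Clock and Dbp, and 0.64 for Nr1d1 and Dbp. Within single groups of 4, r of Arntl and Dbp was -0.93 in WW and -0.96 in NW, -0.56 in NE and -0.90 in Water-Ethanol, given as a description. For Nr1d1 and Dbp it was less even, at 0.32 in WW, 0.89 in NW, 0.52 in NE and 0.96 in Water-Ethanol. GC content and transcript length differ between these genes, with Dbp at 57.2% GC and 1678 exon bases, Arntl at 48.3% and 2908, and Clock at 41.5% and 9925. After removal of a fit on GC content from each library the 4 values were 0.89, -0.80, -0.77 and 0.70, in the same order. After removal of GC content and length together they were 0.62, -0.81, -0.36 and 0.71, and 1 of the 45 pairs passed the adjusted test. Arntl against Dbp thus moved little and Clock against Dbp was reduced the most.

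In the count table's models Dbp shares 539 of its 1678 exon bases (32.1%) with the antisense gene Sphk2, whose level ran from 25.6 to 30.1 CPM, and the use of strand in counting is not given in the sources used here. Cry2 shares 149 of 4001 exon bases with an antisense transcript. In GENCODE M21 Nr1d1 shares 263 of 3077 exon bases with Thra on the other strand.

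**Figure D3:**
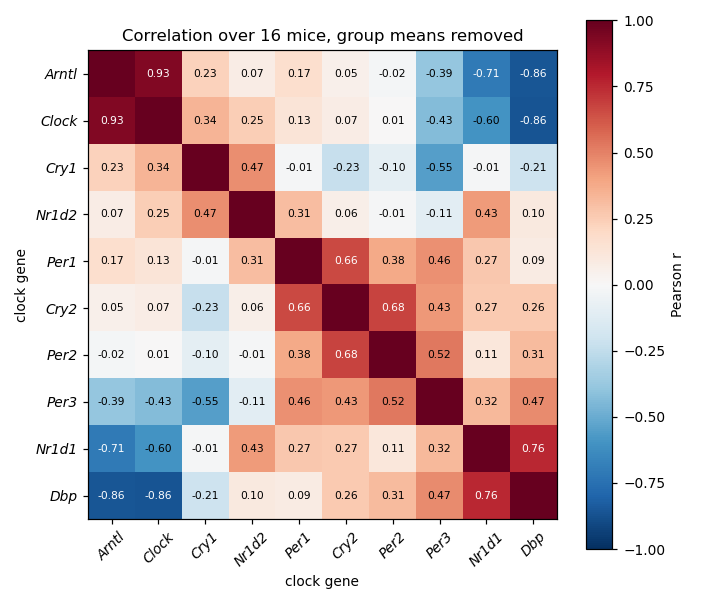
Pearson's r of each pair of clock genes over 16 mice after group means were removed from log2 CPM; color runs from -1 (blue) to 1 (red). Arntl and Clock form 1 corner at 0.93 and run opposite to Dbp at -0.86 and -0.86.

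**Figure D4:**
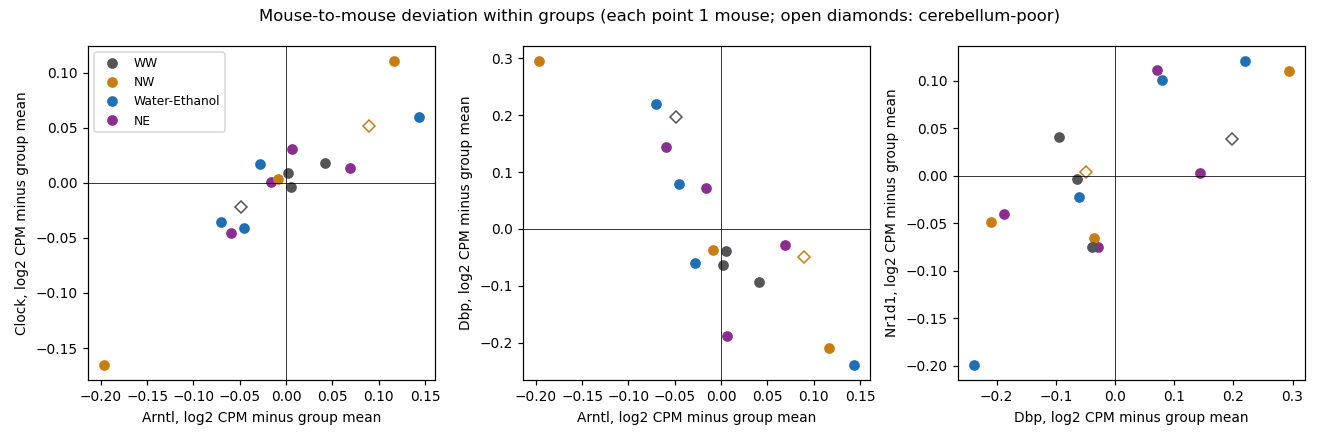
Deviation of log2 CPM from the group mean for Arntl against Clock, Arntl against Dbp, and Dbp against Nr1d1, with 1 point per mouse colored by group. Points follow a rising, a falling and a rising line, with NW replicate 1 and Water-Ethanol replicate 4 at opposite ends.

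Likeness over all genes places these members further. Among 15591 other genes tested, Clock was the gene most like Arntl over the 16 mice, and Clock and Arntl were the third and the fifth most opposite to Dbp. Nr1d1 ranked 43 in likeness to Dbp. Ciart, a clock repressor of the wider list named after its values were seen, ranked 15 with r = 0.80. Outside the clock lists the genes most like Dbp were Rps12 (r = 0.88), Nenf (0.86), Trem2 (0.86), Rtp4 (0.84) and Abhd11 (0.84), and those most like Arntl were Klhl7 (0.89), Lin54 (0.88), Mob1b (0.88), Egr3 (0.87) and Tmem263 (0.87). The 5 genes like Dbp have 518 to 1699 exon bases and the 5 like Arntl 3171 to 4733, against a median of 2922 over genes tested.

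Per1 stood outside this axis and ran with a list of 8 activity-regulated genes such as Fos, Arc and Nr4a1, which neurons switch on when they fire. Over 120 relations of members with 12 marker lists, a family chosen after the data were seen, Per1 against the activity-regulated score was the only pair to pass the adjusted test. Pearson's r was 0.95 and rho 0.86 over 16 mice, with permutation p of 9.0e-05 and 0.000140, adjusted to 0.0108 and 0.0168. NW replicate 2, lowest in Per1 at 60.3 CPM, was also lowest in Arc (42.3 CPM), Fos (12.8 CPM) and Nr4a1 (28.5 CPM). NW replicate 1 was the next lowest in Arc, at 101 CPM, and the other 14 mice ran from 131 to 232 CPM. Without these 2 mice, which lie farthest from the median score, r was 0.79. No gene of the activity-regulated list passed an adjusted p of 0.05 with edgeR in the 6 comparisons, and DESeq2 called 1 of 8, Fosb, higher for the ethanol effect.

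Cry2 and Per2 were high in the 2 mice low in cerebellum markers. Cry2 was at 148 CPM in WW replicate 4 and 153 CPM in NW replicate 3, against 131 to 137 CPM in the other 6 mice of these groups. Per2 was at 66.2 and 62.8 CPM in them and at 43.9 to 53.9 CPM in those 6. The 2 mice form a cluster of their own, so no pooled correlation is given. Over the other 14 mice r with the cerebellum score was -0.13 for Cry2 and -0.55 for Per2, and the relation of Cry2 therefore rests on the 2 mice.

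**Figure D5:**
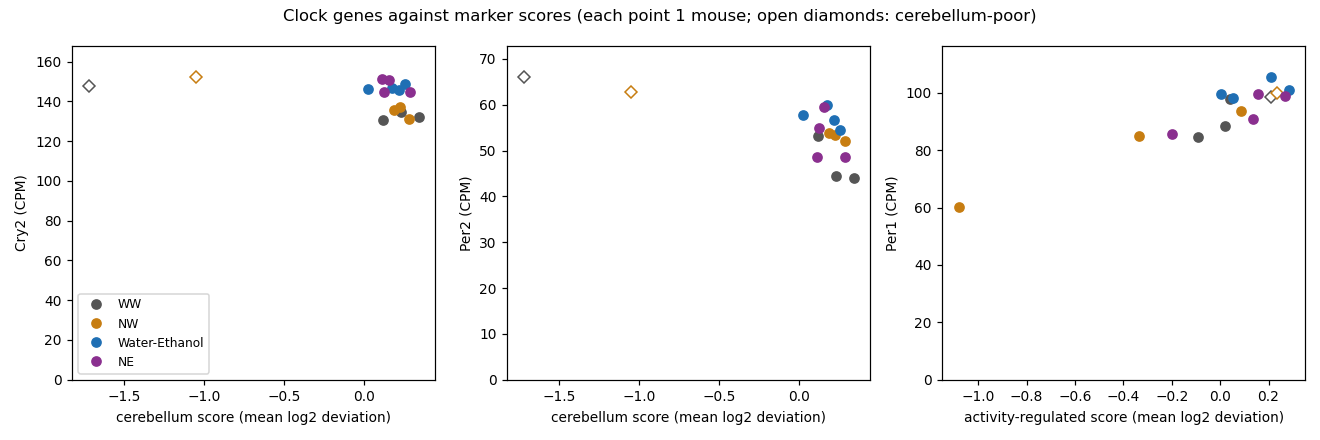
CPM of Cry2 and Per2 against the cerebellum marker score and of Per1 against the activity-regulated score, with 1 point per mouse; a score is the mean centred log2 CPM of the listed genes. The 2 open diamonds lie far left of the other 14 mice for the cerebellum score, and NW replicate 2 lies lowest for both Per1 and the activity-regulated score.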

How the data were processed

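RNA-seq of 16 whole mouse brains, 4 per group, was analysed from tables of the deposited values. Per the labels, reads were trimmed (Trimmomatic 0.32) and mapped by TopHat2 on GRCm38. The authors deposited whole, unnormalized read counts per gene. The counting program and its use of strand are not given in the sources used here, and the sources differ on whether the library kit was stranded. The authors also deposited FPKM from the Cufflinks tools. Groups came from the labels.

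Counts were scaled with TMM factors, filtered with edgeR's default and tested with edgeR 4.0.16 (R 4.3.3) by the quasi-likelihood test. P-values were adjusted by the Benjamini-Hochberg method over all genes tested, with a threshold of 0.05. DESeq2 1.42.0 and limma 3.58.1 (on log2(FPKM + 1)) were alternatives. Log2 CPM used a prior count of 2. Relations were computed in Python 3.11.15 with numpy 2.4.6. Tests were tried on simulated data. Of 24 pairs of mice within groups, 0 held identical counts, and counts differed beyond sampling noise in each pair (chi-square per gene of 3.39 or more). Replicates were separate mice.

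The members and all gene lists were chosen with earlier results of these data known. The text names all 10 members, genes of the wider list with an adjusted p under 0.05 or with separate groups and an unadjusted p under 0.05, the 5 genes most like Dbp and Arntl, and markers beside a result. The marker lists for pituitary, blood, olfactory bulb, choroid plexus, meninges and brain cell types served as checks, and 6 of 7 blood genes were at 0 in all mice. The values of 1 gene of the wider list are not reported here.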

Additional observations from a re-analysis of the deposited data

Results flagged for a closer look

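A single mouse far from the other 3 was looked for in 48 groups of 4 mice, 40 of member levels and 8 of marker scores. Chance alone flags about 1 in 20 such groups. Among the 48, 2 stood out, which is not above that share. Both concern the cerebellum score, the mean centred log2 CPM of 6 cerebellum markers. WW replicate 4 had a score of -1.72, against 0.12 to 0.34 in the other WW mice. NW replicate 3 had a score of -1.05, against 0.19 to 0.29 in the other NW mice. No member level stood out by this measure in any group.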

How the results depend on the processing

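With 1 mouse left out at a time, members called ran from 0 to 2 in Water-Ethanol against WW and from 0 to 1 both in NE against WW and for the ethanol effect; the calls of the 2 comparisons with WW came without WW replicate 4. With both cerebellum-poor mice left out, a choice made after seeing the data, members called were 2, 1 and 1 in that order. Without a filter on low counts the ethanol effect called 0 members. No other alternative changed the number of members called. Calls over all genes moved more: DESeq2 gave 125, 583, 508, 1077, 110 and 1 for NW, Water-Ethanol, NE, ethanol, nicotine and interaction, against 0, 70, 48, 702, 0 and 0; a fit of all 16 mice gave 112, 28 and 51 for the comparisons with WW, and marker covariates 119, 13 and 27. Water-Ethanol and NE calls were 36 and 9 with GC offsets, 0 and 24 with limma on FPKM, 0 and 25 with a pseudocount of 0.1, 0 and 1 with limma unfiltered, 143 and 53 with edgeR unfiltered, and 797 and 283 without the 2 mice. Leaving out each mouse gave 0 to 797, 0 to 283, 280 to 899 and 0 to 49 calls for Water-Ethanol, NE, ethanol and nicotine. The causes were not tested.

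Of the 45 member pairs, 4 passed as reported, 5 on the FPKM scale, 3 with GC content removed, 1 with GC content and length removed, and 2 without the 2 mice; all but the FPKM scale were added after seeing the data. Single members near 0 changed sign. With GC offsets the log2 difference was -0.017 for Cry2 in NW, 0.031 for Clock and -0.025 for Dbp in Water-Ethanol, -0.057 for Per1, -0.019 for Per2, -0.0063 for Per3 and 0.054 for Clock in NE, and -0.0070 for Nr1d1 in the ethanol effect. With limma, Clock in Water-Ethanol was at 0.0025 (pseudocount 1, filtered or not) or 0.0026 (pseudocount 0.1). Dbp in the ethanol effect was at 0.041 with marker covariates and 0.013 without the 2 mice. Leaving out 1 mouse at a time, log2 differences ran in NW from -0.22 to 0.011 (Per1), -0.031 to 0.11 (Per3), -0.023 to 0.074 (Cry2) and -0.080 to 0.019 (Arntl). In Water-Ethanol they ran from -0.0045 to 0.069 (Arntl), -0.024 to 0.0086 (Clock) and -0.044 to 0.11 (Dbp). In NE they ran from -0.016 to 0.063 (Per1), -0.042 to 0.17 (Per2), -0.039 to 0.083 (Per3), -0.020 to 0.0077 (Clock) and -0.0032 to 0.036 (Nr1d2), and in the ethanol effect from -0.051 to 0.044 (Dbp). No paired analysis was possible because the labels give no replicate numbers shared between groups. With 4 mice per group the smallest exact permutation p is 0.0286.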
